A study of Mus musculus with 6 samples.

Results

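Translation initiation and elongation factors are the proteins that bring the ribosome to the start of a message and carry it along the coding sequence. Here their genes were taken from a count table of mouse transcripts: genes of the protein_coding biotype whose names begin with Eif or Eef and a digit, without the eIF2 kinases named Eif2ak. This gave 64 of 54532 genes, in 12 groups set by complex or role. The transcripts were measured in BV2 cells, an immortalised mouse microglial line, in 3 libraries labelled SMEK1 knockdown and 3 labelled WT, with no labelled treatment. SMEK1 is a regulatory subunit of protein phosphatase 4, encoded by Ppp4r3a. The series' design text describes both sets of cells as knockdown derivatives of BV2, and a control construct in the WT cells is neither named nor denied by the labels. Nothing in the labels ties a group's libraries to separate cultures. The p-values therefore measure only how far these libraries spread, and other differences between the cultures cannot be told apart from the knockdown.

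Initiation starts when eIF2, loaded with GTP and the initiator tRNA, joins the small ribosomal subunit together with eIF1, eIF1A, eIF5 and the large scaffold eIF3. The cap-binding complex eIF4F brings the message, eIF5B joins the subunits, and eIF2B, the exchange factor that phosphorylated eIF2 inhibits, recharges eIF2 with GTP. In elongation, eEF1A delivers aminoacyl-tRNA, the eEF1B subunits recharge it, and eEF2 moves the ribosome by a codon. In bulk RNA a lower value can come from less RNA per cell or from fewer cells that hold it, and these cannot be told apart.

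The targeted transcript, Ppp4r3a, reached 48, 122 and 94 counts in the 3 knockdown libraries (A, B, C), against 335, 227 and 260 in the 3 WT libraries (A, B, C). The groups did not overlap, and the transcript stood at 26.1% of its WT level (log2 fold change -1.94, SE 0.24, adjusted p = 8.22e-05). The knockdown libraries held 18627425 to 21131557 counts in total and the WT libraries 18036591 to 18708438, and a single count was worth 0.0444 to 0.0597 counts-per-million (CPM). Of 12 microglial markers 10 were high enough to test, and of these 3 rose and 5 fell. The summed level of the list was 3487 to 3833 CPM in knockdown and 3897 to 4303 CPM in WT libraries, with Csf1r at 259.7 CPM in knockdown and 430.9 CPM in WT libraries, while Cx3cr1 (0.460 CPM in knockdown and 0.224 CPM in WT libraries) and P2ry12 (0 CPM in knockdown and 0.0559 CPM in WT libraries) were near 0. Of 20 markers of neurons, astrocytes, oligodendrocytes and fibroblasts 2 could be tested, Tubb3 and Mbp, and both were higher in the knockdown. Summed over their lists, the neuronal markers reached 1.2 to 2.08 CPM in knockdown and 0.477 to 0.706 CPM in WT libraries, and the oligodendrocyte markers 7.15 to 7.26 CPM in knockdown and 2.53 to 2.81 CPM in WT libraries, low levels. The part of the markers in the results was not tested.

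As a class the factors leaned downwards in the knockdown. Of 64 members 59 passed the filter on low counts and 26 of these passed the test of edgeR's quasi-likelihood method at an adjusted p under 0.05, or 44.1%, against 40.1% of the 12269 genes tested. The direction was uneven, with 6 members higher (10.2%, against 20.5% of all genes tested) and 20 lower (33.9%, against 19.6%). The median log2 fold change of the 59 members was -0.19, against 0.01 over all genes tested, and the knockdown and WT libraries did not overlap for 31 members (52.5%, against 50.9% of all genes tested). The most abundant members per length, Eef1a1 and Eef2, were among those that fell. The 64 genes together took 3.34% to 3.35% of all counts in the knockdown libraries and 3.73% to 3.84% in the WT libraries. That share follows these 2 genes and does not show a fall of the other members. Eef1a1 alone took 0.821% to 0.907% in knockdown and 0.993% to 1.07% in WT libraries. Eef2 had 120025 to 127058 counts in knockdown and 162163 to 173751 in WT libraries. Of the 20 members that fell, 8 belong to eIF3, 4 to the eEF1 and eEF2 groups and 3 to the methyltransferases of elongation factors. The 6 that rose were Eif1ax, Eif2s3x, Eif2b1, Eif2b5, Eif4h and Eef2kmt.

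**Figure D1:**
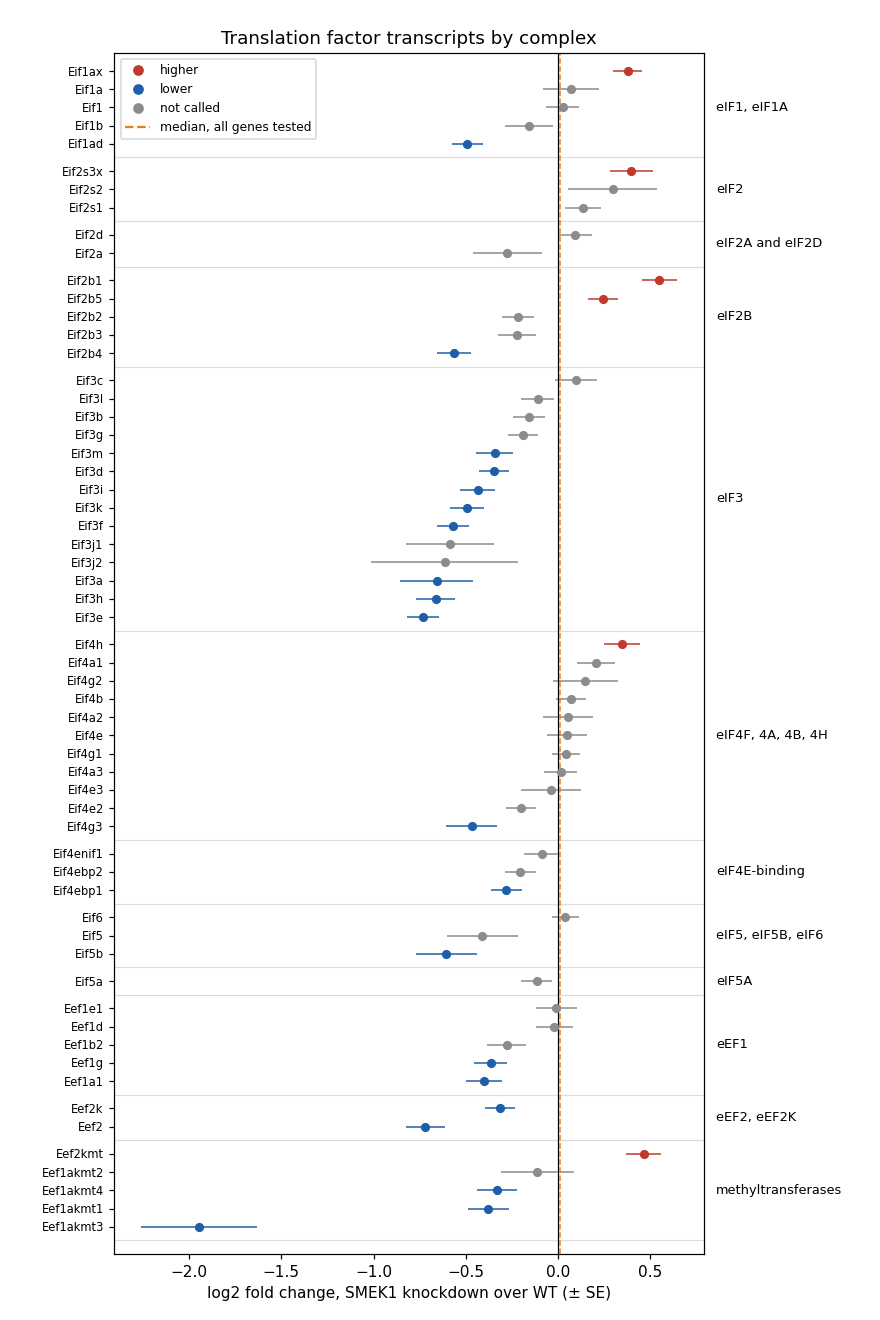
Log2 fold change of knockdown over WT (horizontal axis) with its SE for the 59 tested members, grouped by complex; colour gives the call at an adjusted p under 0.05 and the dashed line is the median of all genes tested (0.01). In eIF3, 13 of 14 points lie left of 0 and 8 of them were called lower, while the eIF4F group lies around 0.

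The size of this lean depends on how the libraries are scaled. With library totals in place of TMM, the scaling by which most genes are taken as unchanged, the median of all genes tested moved to 0.17 and that of the members to -0.029, and the calls became 12 higher and 12 lower of 59 (over all genes tested 31.7% were then higher and 12.8% lower). Relative to the median of all genes the members stood at -0.20 under both scalings. A change of scaling moves all genes by nearly the same amount, so this difference was nearly fixed in advance and does not test the lean. The 12 lower calls were a subset of the 20, which lost Eif3a, Eif3m, Eif4g3, Eif4ebp1, Eif5b, Eef2k, Eef1akmt1 and Eef1akmt4. The 6 higher calls were kept, and Eif1, Eif2d, Eif4a1, Eif4b, Eif4g1 and Eif6 were added to them.

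The members spanned a wide range of abundance. In FPKM, a level per length that allows genes to be compared, Eef1a1 had the highest mean of the 6 libraries with 3843, followed by Eef2 with 2306, Eif5a with 1166, Eef1g with 823 and Eef1b2 with 681. Next came Eif3h with 362 and Eif4a1 with 360, a pair whose order differed between the groups. In knockdown libraries Eif4a1 (353 to 406) lay above Eif3h (255 to 300). In WT libraries Eif3h (378 to 496) lay above Eif4a1 (290 to 369). At the low end stood Eif5b with 1.76, Eef1akmt3 with 0.620 and Eif3j2 with 0.575. By group, Eef1a1 had 3299 ± 125 FPKM in knockdown and 4388 ± 321 in WT libraries, and Eef2 had 1736 ± 238 in knockdown and 2875 ± 65 in WT libraries (SD, n = 3 each).

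**Figure D2:**
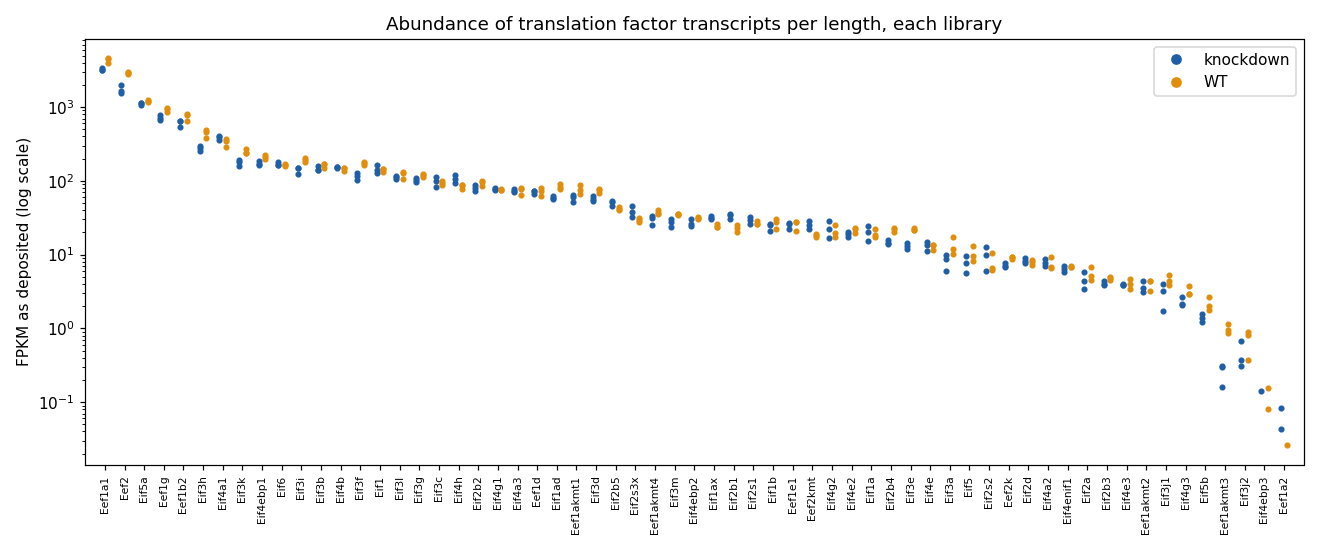
Deposited FPKM on a log scale for each member with a count in any library, in order of the mean; each point is a library, knockdown left of WT, and values of 0 are not drawn. Eef1a1, Eef2 and Eif5a stand at the top, with means of 3843, 2306 and 1166 FPKM, and Eef1a2 and Eif4ebp3 at the bottom.

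Of the 5 members that were not tested, Eif2s3y, Eif4e1b and Eif5a2 had 0 counts in all 6 libraries. A count of 0 over a group allows a level of up to 0.0470 CPM in the knockdown and 0.0574 CPM in the WT group (3 counts over the group's libraries, counting error only). Eef1a2, the eEF1A form of neurons and muscle, had 6 counts in the knockdown and 1 in the WT group. Eif4ebp3 had 2 counts in the knockdown and 3 in the WT group.

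Promoter sequence is shown for 4 members that changed and that carry CACGTG, the E-box bound by MYC and related factors, because 13 members hold this motif near the start. The motifs were chosen with the results known. RefSeq starts (GRCm38.p6, 250 bases before to 50 after the start) matched 48 of 64 members, some with several starts, any of which could hold a motif. CACGTG, which reads the same on both strands, was present in 13 of the 48 (27.1%), against 2187 of 27025 genes (8.09%). These 27025 are all genes with a RefSeq start, whether or not they were expressed here, so the 2 shares come from unlike sets. Of the 13, 6 fell, 1 rose, 5 did not pass and 1 was not tested. Of all tested members 33.9% fell and 10.2% rose, against 19.6% and 20.5% of all genes tested. Whether the motif goes with the calls was not tested. TGACGTCA, the palindromic cAMP response element, was present in 1 of the 48 (2.08%), Eef2, against 2.03% of genes. The windows below run from 100 bases before to 15 bases from the start, with the motifs in capitals. The Eef2 window (chr10:81176531-81176645 on the plus strand) holds both motifs, and Eef2 fell by 39.3%. The Eif3f (chr7:108934315-108934429 on the plus strand) and Eif3k (chr7:28981874-28981988 on the minus strand) windows belong to members of eIF3 that fell, and the Eif4h window (chr5:134639395-134639509 on the minus strand) to a member that rose. A match describes these letters and does not show that a factor binds there.
Eef2: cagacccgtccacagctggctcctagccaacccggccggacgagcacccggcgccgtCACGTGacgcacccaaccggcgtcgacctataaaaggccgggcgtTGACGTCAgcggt
Eif3f: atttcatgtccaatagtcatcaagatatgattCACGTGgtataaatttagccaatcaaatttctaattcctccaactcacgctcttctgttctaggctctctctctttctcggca
Eif3k: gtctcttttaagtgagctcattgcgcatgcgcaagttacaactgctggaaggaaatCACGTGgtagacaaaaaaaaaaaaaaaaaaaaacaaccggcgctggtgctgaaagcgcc
Eif4h: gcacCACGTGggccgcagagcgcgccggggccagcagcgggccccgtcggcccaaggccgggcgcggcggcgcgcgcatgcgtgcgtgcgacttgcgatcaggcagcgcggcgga

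The elongation factor eEF2 gave the largest absolute loss. Eef2 (chr10:81176631-81182498 in GRCm38) had 6639, 5333 and 5495 CPM in the knockdown libraries, against 9378, 9836 and 9545 CPM in the WT libraries, with libraries in the order A, B, C throughout. Every knockdown library lay far below every WT library, and knockdown A was the highest of its group. The mean fell by 39.3% (log2 fold change -0.72, SE 0.11, adjusted p = 2.41e-04), and the call held in all 21 alternative settings, with log2 fold changes of -0.82 to -0.56. Eef2k, the kinase that inhibits eEF2 by phosphorylation, had 57.1, 51.8 and 53.1 CPM in knockdown libraries, against 64.2, 69.4 and 68.1 CPM in WT libraries. These groups did not overlap either (log2 fold change -0.32, SE 0.08, adjusted p = 0.00905). The Eef2k call was lost without knockdown C (adjusted p = 0.0502), with library totals (0.0731) and with a replicate block by library letter.

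In the eEF1 group 2 of 5 tested members fell and 3 did not pass. Eef1a1 had 7996, 8270 and 8656 CPM in knockdown libraries, against 10025, 11517 and 11380 CPM in WT libraries. The lowest WT library, WT A, lay above all 3 knockdown libraries (log2 fold change -0.40, SE 0.10, adjusted p = 0.00628). Eef1g, the gamma subunit of the exchange complex, had 2017, 1773 and 1859 CPM in knockdown and 2255, 2562 and 2454 CPM in WT libraries, again without overlap (log2 fold change -0.36, SE 0.09, adjusted p = 0.0075). Of the 21 alternative settings, only the replicate block ended the calls of Eef1a1 (adjusted p = 0.0630) and Eef1g (0.0650). Eef1b2, which encodes the exchange subunit itself, had 1653, 1414 and 1638 CPM in knockdown and 1641, 2054 and 2009 CPM in WT libraries. WT A lay within the knockdown range there, and the difference of -0.28 did not pass the test (adjusted p = 0.0561). It passed in 7 of the 21 alternative settings, among them DESeq2 (0.0228), limma-voom (0.0494), upper-quartile scaling (0.0423) and the fit without WT A (0.00887), and the adjusted p of the 21 ran from 9.83e-04 to 0.224. The exchange subunit gene Eef1d (-0.02) and Eef1e1 (-0.01), whose product belongs to the tRNA synthetase complex, stood near 0, and both turned positive in some settings, library totals among them. Processed pseudogenes resemble Eef1a1, Eef1g and Eef2, and with their counts added the log2 ratios of mean CPM were -0.40, -0.37 and -0.72.

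The enzymes that methylate elongation factors moved in both directions. Eef1akmt3, a lysine methyltransferase of eEF1A, had 16, 10 and 18 counts in knockdown libraries, against 57, 40 and 44 in WT libraries. In scaled terms this was 0.836, 0.444 and 0.813 CPM in knockdown and 3.08, 2.39 and 2.59 CPM in WT libraries, the largest fold of all members (log2 fold change -1.95, SE 0.32, adjusted p = 4.87e-04). The groups stand well apart, at a depth of 10 to 57 counts per library. Its exons overlap the opposite-strand gene Mettl1 over 3.68% of their bases, and Mettl1 had 2557 counts in the knockdown and 1684 in the WT group, a difference in the other direction. Eef1akmt1, the most abundant of the group per length, had 56.3, 50.1 and 60.8 CPM in knockdown and 62.2, 82.8 and 72.2 CPM in WT libraries, without overlap (log2 fold change -0.38, SE 0.11, adjusted p = 0.0185). Eef1akmt4, a further eEF1A methyltransferase, fell by 0.33 on the log2 scale (adjusted p = 0.0284), and 8.86% of its exon bases overlap Alg3 on the opposite strand. A further overlap, over 30.7% of them, is with the protein-coding gene Gm49333 on the same strand, which had 0 counts in both groups. The calls of Eef1akmt1 and Eef1akmt4 were lost without knockdown B, WT B or WT C, and that of Eef1akmt4 also without knockdown C. Eef2kmt, the methyltransferase of eEF2, went the other way, with 66.4, 61.8 and 76.5 CPM in knockdown libraries and 46.9, 50.9 and 50.4 CPM in WT libraries (log2 fold change 0.47, SE 0.10, adjusted p = 0.00234). Its groups did not overlap, and 17.6% of its exon bases are shared with Alg1 on the opposite strand, so some of its reads may belong to either gene. Eef1akmt2 did not pass the test (-0.11).

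The complex with the most calls, and with the most genes, was eIF3, which binds the small subunit and links it to the message. Of its 14 genes, all tested, 8 fell and 6 did not pass, where 19.6% of all genes tested fell. Larger shares were called of the methyltransferases (4 of 5), eIF2B (3 of 5) and the eEF2 group (2 of 2). Of the eIF3 genes 13 had a negative log2 fold change, and the median was -0.47. The sum over its genes was 3820, 3654 and 3847 CPM in knockdown libraries, against 4553, 5122 and 4931 CPM in WT libraries, without overlap. Most of the calls lay in its core, which also holds 8 of its 14 genes. In the PCI and MPN octamer that forms the structural core (Eif3a, Eif3c, Eif3e, Eif3f, Eif3h, Eif3k, Eif3l and Eif3m) 6 of 8 fell. Of the module of Eif3b, Eif3g and Eif3i 1 of 3 fell, and Eif3d, a cap-binding subunit, fell by 0.35 (the antisense gene Gm17638 overlaps 43.3% of its exon bases and had 44 counts in the knockdown and 46 in the WT group). With library totals 6 of the 8 falls were still called, where 12.8% of all genes tested were lower, but Eif3b and Eif3l turned slightly positive. The median of the complex lay below that of all genes by -0.47, against -0.48 with TMM. Such a change of scale moves all genes nearly alike, so the 2 distances had to be close.

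Eif3e (chr15:43250058-43282719) showed the strongest fall of the complex. It had 80.7, 97.8 and 89.1 CPM in knockdown libraries, against 152.7, 145.7 and 146.4 CPM in WT libraries. The WT libraries were nearly alike and all knockdown libraries lay far below them (log2 fold change -0.73, SE 0.08, adjusted p = 4.68e-05). Eif3h (chr15:51786558-51865523), on the same chromosome, had 480.9, 421.4 and 459.5 CPM in knockdown and 609.4, 802.2 and 744.3 CPM in WT libraries. WT A was the lowest of its group but still above every knockdown library (log2 fold change -0.66, SE 0.11, adjusted p = 4.35e-04). Eif3f (chr7:108934417-108942951) had 370.5, 308.5 and 335.6 CPM in knockdown and 479.6, 517.1 and 507.9 CPM in WT libraries. It too showed no overlap (log2 fold change -0.57, SE 0.09, adjusted p = 3.26e-04), and all 3 of these calls held in the 21 alternative settings.

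Eif3a, the largest subunit (chr19:60761116-60790693), had a similar fold but a far wider spread. It had 31.2, 52.1 and 45.3 CPM in knockdown libraries, against 88.8, 52.5 and 61.6 CPM in WT libraries. Knockdown B and WT B almost met (log2 fold change -0.66, SE 0.20, adjusted p = 0.02). It was no longer called when knockdown A (log2 fold change -0.47, adjusted p = 0.0851) or WT A (-0.41, 0.0738) was left out, with library totals (0.117) and in DESeq2 (0.0667). Eif3k, Eif3i and Eif3m fell by 0.49, 0.44 and 0.34, and the call of Eif3m was lost without WT C (adjusted p = 0.0505). Of the others, Eif3c stood at 0.10, and Eif3b, Eif3g and Eif3l lay between -0.19 and -0.11, of which Eif3g passed without knockdown A or WT A. Eif3j1 and Eif3j2, near-identical copies (99.4% over 2379 bases) whose reads the counting could have split, stood at -0.59 and -0.61 and did not pass the test, though Eif3j1 did in 6 of the 21 settings, among them DESeq2, limma-voom and the fit without knockdown B.

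**Figure D3:**
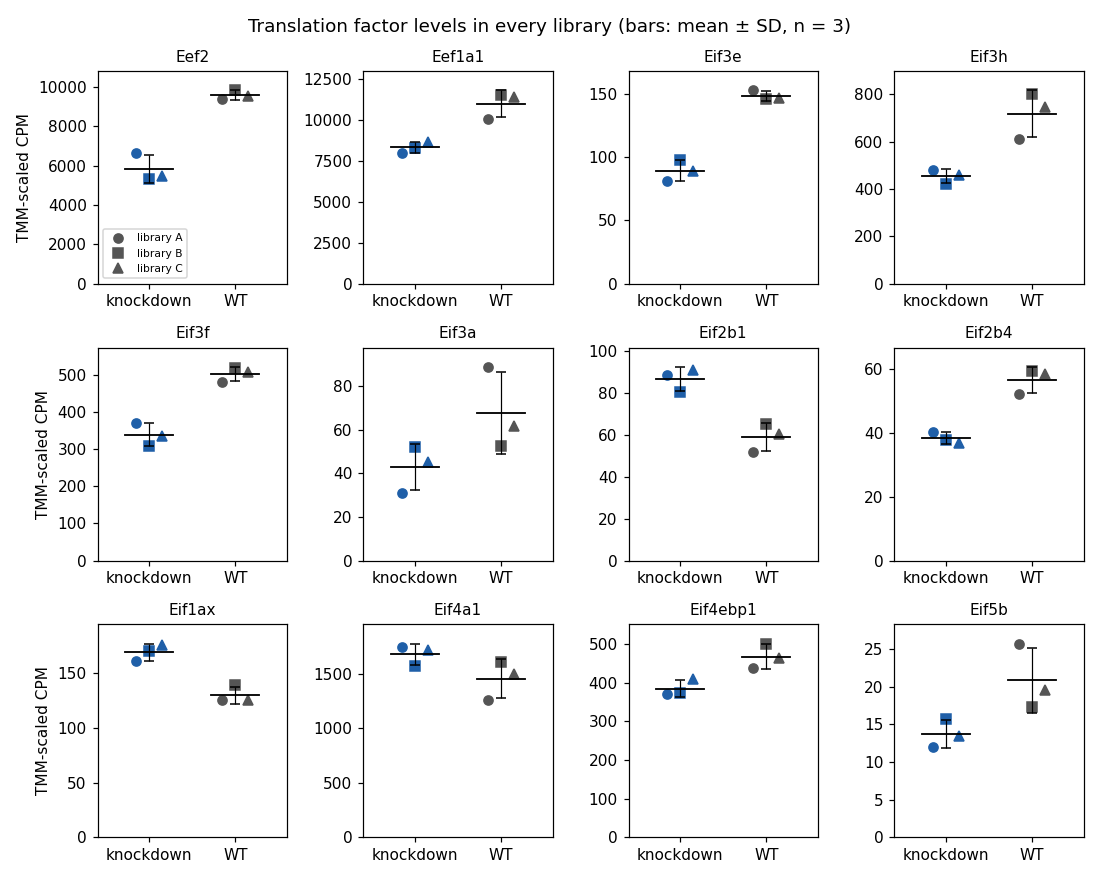
TMM-scaled CPM in every library for 12 members, knockdown left of WT; marker shape gives the library letter, and bars give the mean and SD (n = 3). Eef2, Eif3e, Eif3h and Eif3f are separated by a gap, Eif2b1 and Eif1ax lie higher in the knockdown, Eif3a and Eif5b are spread by knockdown A and WT A, and Eif4a1 overlaps.

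The subunits of eIF2B moved against each other. Eif2b1 (the alpha subunit, chr5:124570213-124579131) had 88.8, 80.4 and 91.3 CPM in knockdown libraries, against 52.1, 65.4 and 60.4 CPM in WT libraries. This was the largest rise of all members, with no overlap (log2 fold change 0.55, SE 0.10, adjusted p = 8.55e-04). Eif2b4 (delta, chr5:31187558-31193430) had 40.4, 37.9 and 36.7 CPM in knockdown and 52.1, 59.4 and 58.6 CPM in WT libraries. It fell by about as much (log2 fold change -0.56, SE 0.09, adjusted p = 4.88e-04), and both calls held in all 21 settings. Exons of Snx17 on the opposite strand overlap 7.85% of those of Eif2b4. Alpha and delta belong to the regulatory subcomplex that senses phosphorylated eIF2, as does beta, encoded by Eif2b2. Eif2b2 had 163.8, 142.9 and 151.7 CPM in knockdown and 162.1, 190.7 and 180.0 CPM in WT libraries, which overlap (-0.22, adjusted p = 0.0654), though the difference passed in 4 of the 21 settings, among them upper-quartile scaling and the fits without knockdown A or WT A. Of the catalytic subcomplex, Eif2b5 (epsilon) rose by 0.25 (adjusted p = 0.0297), a call lost on the FPKM scale and when WT A, WT C, knockdown A or knockdown C was left out, and Eif2b3 (gamma) stood at -0.22 and did not pass.

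Of eIF2 itself the gamma subunit rose. Eif2s3x had 123.4, 177.3 and 145.3 CPM in knockdown libraries, against 120.3, 105.5 and 112.9 CPM in WT libraries. Knockdown A lay just above WT A and knockdown B far above all others (log2 fold change 0.40, SE 0.12, adjusted p = 0.0179). The call was lost without WT B (adjusted p = 0.0545) or WT C (0.0598). Eif2s1, the alpha subunit that stress kinases phosphorylate, had 126.2, 165.9 and 148.3 CPM in knockdown and 130.8, 130.1 and 140.3 CPM in WT libraries. These overlap, and the difference of 0.13 did not pass (adjusted p = 0.297), though it did without knockdown A. Eif2s2 (beta) stood at 0.30 with an SE of 0.24. The alternative initiator tRNA factors Eif2d and Eif2a had log2 fold changes of 0.09 and -0.27, and neither passed, although Eif2a did without knockdown B. For Eif2d the levels were 66.7, 57.8 and 61.8 CPM in knockdown and 53.1, 62.7 and 58.9 CPM in WT libraries.

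Among the small factors of start-site selection Eif1ax rose and Eif1ad fell. Eif1ax, the X-linked gene of eIF1A, had 160.5, 170.4 and 175.7 CPM in knockdown libraries, against 125.1, 138.8 and 125.7 CPM in WT libraries, without overlap (log2 fold change 0.38, SE 0.08, adjusted p = 0.00248). Its autosomal partner Eif1a did not pass (0.07), and of the FPKM of this pair Eif1ax held 61.6% ± 5.2 in knockdown and 56.0% ± 4.0 in WT libraries (SD, n = 3 each). Eif1ad, an eIF1A-domain gene, fell by 0.49 (SE 0.08, adjusted p = 7.38e-04), and 15.3% of its exon bases overlap Banf1 on the opposite strand. Eif1 had 337.4, 277.1 and 293.7 CPM in knockdown and 279.3, 308.4 and 304.3 CPM in WT libraries, fully overlapping (0.03, adjusted p = 0.839). A transcript of Emd shares 662 bases with Eif1 at 96.7% identity, so the Eif1 level is uncertain.

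In the cap-binding and unwinding machinery 1 of 11 tested members rose, 1 fell and the median log2 fold change was 0.05. Eif4a1, the main RNA helicase of eIF4F, had 1750, 1570 and 1721 CPM in knockdown libraries, against 1260, 1608 and 1503 CPM in WT libraries. WT A was low and the others overlapped, and the difference of 0.21 did not pass (adjusted p = 0.13), though it did in 5 of the 21 settings, among them library totals, upper-quartile scaling and the fit without knockdown B. The pseudogene Eif4a-ps4, 99.9% identical over 1218 bases, held a further 23110 counts in the knockdown and 15713 in the WT group, equal to 21.6% of those of Eif4a1 in the knockdown and 20.7% in the WT group. With copies added the log2 ratio was 0.22. Eif4e, the cap-binding protein, had 67.3, 90.3 and 80.9 CPM in knockdown and 70.0, 80.4 and 80.5 CPM in WT libraries (0.05, adjusted p = 0.749). Eif4g1, the scaffold, had 561.3, 595.1 and 562.3 CPM in knockdown and 552.2, 544.2 and 572.2 CPM in WT libraries (0.04, adjusted p = 0.682). Both overlapped between the groups.

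The 2 calls of the group were Eif4h and Eif4g3. Eif4h, which stimulates the helicase, rose with 666.9, 540.7 and 589.7 CPM in knockdown and 426.4, 493.5 and 489.9 CPM in WT libraries (log2 fold change 0.35, SE 0.10, adjusted p = 0.0135). Eif4g3, a less abundant scaffold, fell with 22.6, 30.3 and 23.9 CPM in knockdown and 41.5, 32.1 and 32.9 CPM in WT libraries (log2 fold change -0.47, SE 0.14, adjusted p = 0.0188). The groups did not overlap for either gene. The call of Eif4g3 was lost without knockdown A, knockdown C or WT A. Of the FPKM of the 3 Eif4g genes it held 2.22% ± 0.16 in knockdown and 3.19% ± 0.35 in WT libraries (SD, n = 3 each). Eif4e2, a weaker cap-binding relative, stood at -0.20 and passed without knockdown A or WT A.

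Of the repressors that bind eIF4E, 1 of 3 tested members fell. Eif4ebp1, the eIF4E-binding protein that mTORC1 inactivates, had 370.8, 374.0 and 409.0 CPM in knockdown libraries, against 436.7, 500.5 and 463.3 CPM in WT libraries. The groups were close but did not overlap (log2 fold change -0.28, SE 0.08, adjusted p = 0.019), and the call was lost without WT B (adjusted p = 0.0768), without WT C (0.0688) and with library totals (0.141). Eif4ebp2 had 173.1, 147.3 and 151.8 CPM in knockdown and 180.4, 175.0 and 188.2 CPM in WT libraries. It did not pass (-0.20, adjusted p = 0.0702), though its groups did not overlap and it passed without knockdown A. Eif4ebp1 held 86.5% ± 1.4 of the FPKM of this pair in knockdown and 87.1% ± 1.0 in WT libraries (SD, n = 3 each), and Eif4enif1, the eIF4E transporter, stood at -0.09.

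Of the late initiation factors, Eif5b fell. It had 11.97, 15.73 and 13.46 CPM in knockdown libraries, against 25.69, 17.31 and 19.60 CPM in WT libraries. As for Eif3a, WT A was far above the rest and knockdown A lowest (log2 fold change -0.60, SE 0.17, adjusted p = 0.0129). Leaving out knockdown A (adjusted p = 0.0521), knockdown C (0.0506) or WT A (0.0544) ended the call, and 16.8% of its exon bases overlap Rev1 on the opposite strand. Eif5, the GTPase activator of eIF2, stood at -0.41 with an SE of 0.19 and did not pass (adjusted p = 0.115), though it did in 5 of the 21 settings, among them the looser filter and the fits without knockdown B or WT B. Eif6, which keeps the large subunit from joining early, had 481.1, 455.7 and 450.2 CPM in knockdown and 448.3, 463.2 and 436.4 CPM in WT libraries, with overlap (0.04, adjusted p = 0.692). Eif5a, which helps the ribosome past difficult peptide bonds, had 2695, 2575 and 2761 CPM in knockdown and 2785, 3011 and 2899 CPM in WT libraries. The groups just failed to overlap, the difference of -0.11 did not pass (adjusted p = 0.3), and with library totals it was 0.04.

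Libraries of 1 group also differed among themselves in a way that several members shared. Over 8281 genes a single component held 64.4% of the variance within groups, with knockdown B and WT A at one end and knockdown A and WT B at the other. For 15 members knockdown B was the highest knockdown library and WT A the highest WT library, and in all 15 knockdown A was the lowest of its group. Of these 15, 6 were called, namely Eif2s3x, Eif3a, Eif3e, Eif3m, Eif4g3 and Eif5b. This is near the shares called of all genes tested (40.1%) and of all tested members (44.1%). How many of all genes show this order of libraries was not counted. The position of a member on this component ran with the GC content of its longest coding transcript (Pearson r = -0.59 across 59 members and -0.48 across 10778 genes, which share the same 6 libraries). Between GC content and the fold change between groups r was -0.05 across 59 members. Without knockdown B and WT A 7 members were higher and 22 lower, where 20.4% of all genes tested were higher and 19.2% lower. Without knockdown A and WT B 6 members were higher and 18 lower, where 18.2% of all genes tested were higher and 17.8% lower. With the component as a covariate 8 members were higher and 30 lower, among them 11 of eIF3, where 28.3% of all genes tested were higher and 28% lower. Since that covariate is taken from the spread within these same groups, it reduces the residual spread and raises calls by construction. These 3 fits were added after the data were seen, and the part of the component in single results was not tested beyond them.

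**Figure D4:**
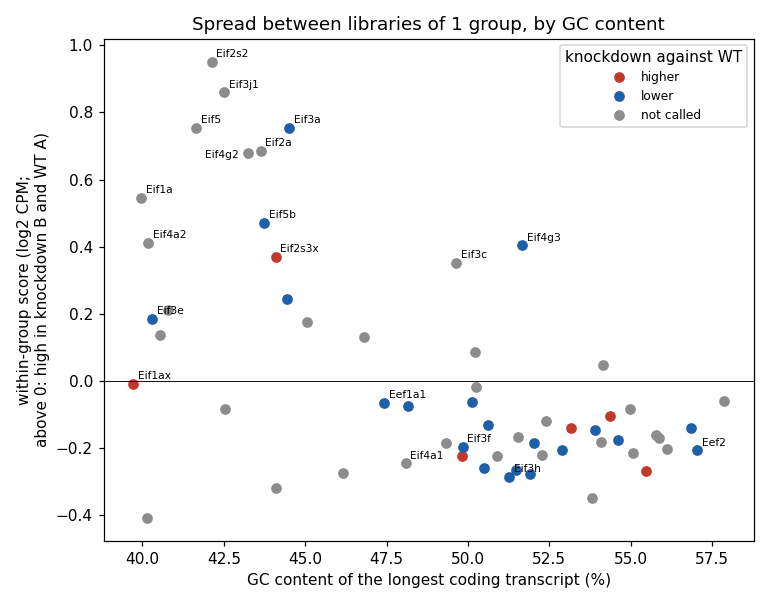
GC content of the longest coding transcript (horizontal axis, %) against the within-group score (vertical axis, log2 CPM, above 0 where knockdown B and WT A are high) for 59 members, coloured by call. Members with a high score lie mostly at low GC, among them Eif2s2, Eif3j1, Eif5 and Eif3a, while Eef2 and Eif3h lie below 0.

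Some members lie on chromosomes whose median log2 fold change lay away from 0, though genes on them were called in both directions. The median log2 fold change of the genes tested on chromosome 16 was 0.38 (53.3% higher and 6.33% lower). On chromosome 14 it was -0.33 (7.23% higher and 46.9% lower). On chromosome 19 it was -0.16 (11.9% higher and 35.5% lower), and on chromosome 2 it was 0.15 (32.4% higher and 15.5% lower). Of the 5 tested members on chromosome 16, Eif2b5 and Eef2kmt rose and stood at -0.13 and 0.09 relative to that median. Eif4a2 and Eif4g1 were not called and stood at -0.32 and -0.34 relative to it, and Eef1akmt4, which fell, at -0.71. Eef1akmt1 lies on chromosome 14, where it stood at -0.05 relative to the median. Of the 4 tested members on chromosome 2, Eif3m fell, at -0.49 relative to its median, and none rose. All 3 members on chromosome 19, Eif1ad, Eif3a and Eef1g, fell, and Eif1ax and Eif2s3x, the 2 tested members on the X chromosome (median -0.06), both rose. This grouping was seen after the values, and its part in the calls was not tested.

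Genes that control these factors, taken from lists of their pathways and not counted as members, moved in both directions. Over all genes tested 20.5% rose and 19.6% fell, and the counts of each list stand beside these shares. Whether a list departs from them was not tested. Of 10 genes of eIF2 kinases and phosphatase adaptors 3 rose and 3 fell (median log2 fold change 0.11). Ppp1r15a, which guides the phosphatase that restores eIF2, had 94.8 ± 10.0 CPM in knockdown and 59.2 ± 3.9 CPM in WT libraries (0.68, adjusted p = 1.64e-04). Dnajc3, an inhibitor of eIF2 kinases, had 7.47 ± 1.00 CPM in knockdown and 15.8 ± 2.3 CPM in WT libraries (-1.08, adjusted p = 3.49e-04). The kinase gene Eif2ak2 had 3.32 ± 0.93 CPM in knockdown and 9.53 ± 2.63 CPM in WT libraries (-1.52, adjusted p = 6.92e-04).

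Of 15 genes of mTORC1 and cap-binding control 1 rose and 4 fell (median -0.24), where 20.5% of all genes tested rose and 19.6% fell. Ddit4, an inhibitor of mTORC1 under stress, fell to 15.2 ± 0.8 CPM in knockdown libraries, against 40.2 ± 1.9 CPM in WT libraries (-1.40, adjusted p = 1.64e-06). Mtor, the kinase itself, fell to 43.8 ± 1.9 CPM in knockdown, against 67.0 ± 2.4 CPM in WT libraries (-0.61), and Tsc2, a negative regulator, fell by 0.42. Of 12 poly(A)-binding, start-site helicase and recycling genes 3 fell and 9 did not pass (median -0.03). Pabpc1, the main cytoplasmic poly(A)-binding protein, fell to 811 ± 119 CPM in knockdown, against 1344 ± 132 CPM in WT libraries (-0.73). Pabpc4, its relative, fell to 252 ± 5 CPM in knockdown, against 369 ± 19 CPM in WT libraries (-0.55), and Mcts1, a ribosome recycling factor, fell by 0.67.

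Of 6 tested termination and rescue genes 1 rose, Gspt1 (0.37), which encodes the release factor eRF3a, and 1 fell, Gtpbp1 (-0.53). Of 14 genes of hypusine, diphthamide and selenocysteine factors 1 rose and 2 fell, where 20.5% of all genes tested rose and 19.6% fell. Dph1, needed to make the diphthamide of eEF2, fell to 45.8 ± 1.1 CPM in knockdown, against 65.5 ± 2.3 CPM in WT libraries (-0.52, adjusted p = 3.48e-04), and Mettl13, a methyltransferase of eEF1A, fell by 0.66. Sbds, which works in the release of eIF6 from the large subunit, rose by 0.66 (adjusted p = 1.06e-04). Of 10 mitochondrial translation factors 4 rose and 1 fell (median 0.16), with Mtif3, an initiation factor, at 21.5 ± 0.2 CPM in knockdown and 11.0 ± 1.4 CPM in WT libraries (0.97, adjusted p = 1.69e-04), Mrrf at 0.35, and Tufm, the mitochondrial elongation factor that delivers tRNA, at -0.32.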

How the data were processed

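RNA of 6 BV2 libraries was sequenced. Per the labels' protocols, RNA came from a column kit and libraries from a SMARTER mRNA kit. The build was GRCm38 (mm10), per the submitters' processing notes. How reads were aligned and counted, with or without strand, is not given in the sources used, and without strand a gene and its antisense partner cannot be separated. The authors deposited whole-number counts per gene, and FPKM values, used here only to compare levels between genes and in alternatives; another deposited table holds the same 327192 FPKM values (equal within 1e-06 of each value) and was used no further. The test of the 3 knockdown against the 3 WT libraries used the counts and edgeR 4.0.16 under R 4.3.3 (filterByExpr, TMM, glmQLFit, glmQLFTest, no covariate), with p-values adjusted by Benjamini-Hochberg over all genes tested and genes called under 0.05. Each fold change is log2(knockdown/WT), and SE is the size of the fold change over the square root of F, which is approximate. Group values are means ± SD of TMM-scaled CPM. Groups overlap where the ranges of their libraries do. The biological coefficient of variation was 0.121. Limits on counts of 0 cover counting error only. On simulated knockdown and WT counts of 12146 genes the fit recovered 50 of 79 genes changed 1.5-fold, 50 of 58 changed 2-fold and 61 of 63 changed 4-fold, with 8 false calls. There all other genes were unchanged, every gene had the same dispersion and the libraries were independent. In these data 40.1% of genes were called and a single component held 64.4% of the variance within groups. The recovery and false calls need not carry over to them.

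Copies were sought with blastn 2.17.0 (at least 95% identity over at least 200 bases) and overlapping exons, GC content and transcripts were taken from GENCODE M21, which holds all 64 members, 61 with the same start and end. The within-group component uses genes with a mean log2 CPM above 3; chromosome medians use a mean log2 CPM above 2. Alternatives were scaling by RLE, upper quartile or library totals, looser and stricter filters, DESeq2 1.42.0, limma 3.58.1 with voom or on log2(FPKM + 1) and log2(FPKM + 0.1) for genes averaging 0.5 FPKM or more, a fit of protein-coding genes, an adjusted p under 0.01, a replicate block and leaving out each library. Members, complexes, pathway lists and markers were chosen with earlier results of these data known. Values in every library are given for called members with an absolute log2 fold change of at least 0.5, the most abundant member of each complex, a fixed set (Eif2s1, Eif4e, Eif4g1, Eif4a1, Eif4ebp1, Eif4ebp2, Eif5a, Eif6, Eef1a1, Eef2 and Eef2k) and others chosen after their values were seen. Of the pathway lists, up to 3 called genes with the smallest adjusted p are named.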

Additional observations from a re-analysis of the deposited data

How the results depend on the processing

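The main fit gave 6 members higher and 20 lower (all genes called 4918, with 20.5% of those tested higher and 19.6% lower). Library totals gave 12 and 12 with a members' median of -0.029, where 31.7% of all genes tested were higher and 12.8% lower. An adjusted p under 0.01 gave 3 and 13 (all genes called 3181). The replicate block gave 3 and 11 (all genes called 3326, with 7 of eIF3 lower). Its members' median was -0.19, against 0.0095 over all genes tested. The labels do not say whether the library letters pair the samples, and the data gave no sign of it: same-letter libraries had correlations of their deviations from the group means of -0.55, -0.59 and -0.04, so the fit without the block was kept. Leaving out each library gave 4 to 7 members higher, 16 to 21 lower, 7 to 9 of eIF3 lower and 3669 to 4837 genes called. The members' medians were then -0.21 to -0.13, against 0.0095 to 0.030 over all genes tested. For these fits, the replicate block and the stricter p, the shares of all genes by direction are not given. The member counts of these settings alone therefore do not show a lean. Called in all 21 alternative settings were 3 higher and 10 lower members. The replicate block ended the calls of Eif2b5, Eif2s3x and Eif4h among the higher members. Among the lower it ended those of Eif3a, Eif4g3, Eif4ebp1, Eif5b, Eef1a1, Eef1g, Eef2k, Eef1akmt1 and Eef1akmt4. Losses given above for single members do not cover every setting. Signs turned for members near 0: Eif1 ran from -0.051 to 0.11 when single libraries were left out and had -0.032 without knockdown A and WT B, Eif4e ran from -0.029 to 0.16 and had -0.099 without knockdown B and WT A, and Eif5a had 0.044 with library totals. Library totals keep the same counts and change only the scale; for the others the cause was not tested. Depth limits Eef1akmt3 and Eif3j2, which had under 60 counts in every library.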
